A study of Mus musculus with 4 samples.

Results

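The heat shock proteins and chaperonins are the molecular chaperones that fold newly made and damaged proteins. Here they were 81 genes of the 18193 on the array that carried a single gene symbol, found by symbols starting with Hsp90, Hspa, Hspb, Hspd, Hspe, Hsph or Dnaj, or with Cct and a digit. They were read by 200 of the 45101 probe sets, and each gene was represented by its brightest probe set. By the known location of their proteins, 50 were cytosolic, 13 belonged to the endoplasmic reticulum (ER), 7 were mitochondrial and 11 were not assigned. The cytosolic Hsp90ab1 and the mitochondrial Dnajc19 were not analysed here, and Tcp1, the CCT subunit whose symbol falls outside the rule, is described with the cofactors.

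The RNA came from intestinal organoids of the mouse, which are epithelial cultures kept in Matrigel, and all carried floxed Apc (Apc fl/fl). Treatment with 4-hydroxytamoxifen (4OHT) lasted 24 h and served to recombine Apc, which encodes a scaffold of the beta-catenin destruction complex, while control organoids were left untreated. Organoids were collected on day 4 or day 6, which made 4 groups: 4OHT on day 4 and its untreated control, and 4OHT on day 6 and its untreated control, with 1 Affymetrix array each. In the labels the 4OHT organoids are Apc-deficient and the untreated ones normal; they name no Cre driver or number of cultures, and give no animal age. No array held 4OHT-treated organoids without the floxed allele, so the effects of the drug and of Apc recombination cannot be told apart.

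Hsp70 proteins bind and release unfolded chains in a cycle driven by ATP, J-domain proteins (Dnaj) deliver clients to them, and Hsp90 proteins act on later folding intermediates. The cytosol, the ER and the mitochondrion each hold their own set. Cytosolic chaperone genes are classically induced by heat shock factor 1 under protein-damaging stress, and ER chaperone genes by the unfolded protein response through ATF6 and XBP1. In the intestine the secretory cells, Paneth and goblet cells, make large amounts of protein in the ER and depend on that response.

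Intensities ran from 2.73 to 23910 over the arrays, whose medians were 21.9 and 19.5 for 4OHT at days 4 and 6, and 22.0 and 19.3 for untreated at days 4 and 6. Precision is limited by the number of arrays, and how the 2 days were scaled to each other was not given in the sources used here. The 8 epithelial markers all passed the level filter, an intensity of at least 20.9 on any array. Summed intensities of the 7 fibroblast and muscle markers were between 114 and 204, of the 4 endothelial markers between 44.1 and 87.0, and of the 5 immune markers measured between 70.0 and 123. The sources do not place the 4 Apc probe sets relative to the deleted part, so they check nothing; the brightest read 57.7 with 4OHT against 27.2 untreated on day 4, and 170 against 99.6 on day 6. Axin2, a target of Wnt signalling, rose by 0.82 ± 0.21 (SE; limma adjusted p = 0.0399). At day 6 the added RNA controls also differed, the hybridization spikes by 0.91 and the poly-A spikes by 1.37 (median log2, 4OHT minus untreated), against -0.40 and -0.48 at day 4. The 3' minus 5' difference of Actb was larger with 4OHT, by 0.94 on day 4 and by 0.62 on day 6. Their part in the results below was not tested.

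No chaperone gene passed the test of 4OHT over both days. Of 66 members past the level filter, 0 rose and 0 fell (limma, adjusted p under 0.05), where 0.97% of all 13192 genes tested rose and 2.25% fell, 3.22% in all. At an unadjusted p under 0.05, limma gave 7 members, 4 higher and 3 lower, against a background of 13.9%. With 1 array per group and day as a term, a gene's own error in this test is how far its 4OHT difference varied between the days. That error has 1 residual degree of freedom and was mostly replaced by a variance shared over all genes (15.2 prior degrees of freedom). The p-values say nothing of the spread between cultures. The other 15 members, 12 cytosolic and 3 not assigned, lay under the filter on every array. Differences below are 4OHT minus untreated on the log2(intensity + 16) scale, where a dim gene's change comes out too small, and those of a single day have no test.

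The ER and mitochondrial members were mostly lower with 4OHT at day 6 and not at day 4, and the cytosolic members went both ways. At day 4 the median difference was 0.08 for the 50 cytosolic members, 0.04 for the 13 ER members, 0.03 for the 9 of them in the ER lumen and 0.02 for the 7 mitochondrial members, beside 0.06 for all genes past the filter. At day 6 it was 0.01 for the cytosolic, -0.43 for all ER, -0.56 for the ER lumen and -0.37 for the mitochondrial members, beside 0.00 for all genes past the filter. The day 6 median was smaller in size, at -0.285, for all ER members with a pseudocount of 64, and at -0.225 for the mitochondrial members after quantile normalization. At day 6, 10 of 13 ER members, 8 of the 9 in the lumen, and 6 of 7 mitochondrial members were lower with 4OHT, against 50.5% of all genes. At day 4, 4 of 13 ER members, 3 of the 9 in the lumen, and 2 of 7 mitochondrial members were lower, against 43.2%. The 4OHT difference was lower at day 6 than at day 4 for 8 of 9 ER lumen and 6 of 7 mitochondrial members. The same held for 26 of the 38 cytosolic members past the filter, against 57.7% of all genes. These are counts over genes of 2 pairs of arrays, with no replicate check.

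**Figure D1:**
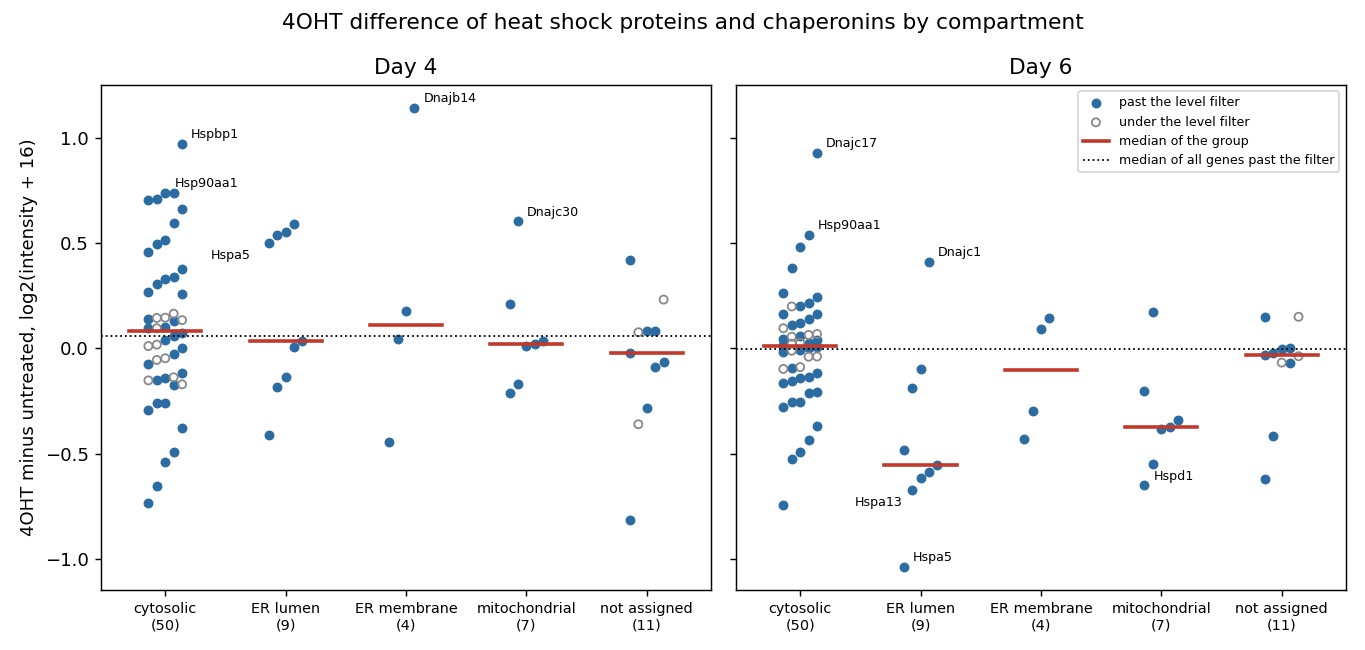
Each point is a chaperone gene, placed by compartment (number of members in brackets), with the 4OHT minus untreated difference in log2(intensity + 16) on the vertical axis, day 4 on the left and day 6 on the right. Red bars are medians over all members of the group and the dotted line is the median of all genes past the level filter; at day 6 the ER lumen median is -0.56 and the mitochondrial median -0.37.

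Changes of 2-fold were few. At day 4, 1 member was at least 2-fold higher with 4OHT, the ER membrane protein Dnajb14 (background 1%), and 0 were lower (background 1.22%). At day 6, 0 were higher (background 0.879%) and 1 was lower, Hspa5 (background 2.97%). Both shares lie near those of all genes.

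The ER lumen holds the Hsp70 protein BiP (Hspa5), the Hsp90 protein Grp94 (Hsp90b1) and the J-domain proteins that serve BiP. Hspa5, Hsp90b1 and Dnajc3, a J-domain protein, carry the ER stress response element in the promoter window of RefSeq (build GRCm38.p6, 250 bases before to 50 after the start), and the windows are shown because these genes are among those lower at day 6. Capitals mark the element, searched on both strands as CCAAT, any 9 bases, then CCACG; in Hsp90b1 the copy nearer the start lies on the other strand.
Hspa5, chr2:34771840-34772139, plus strand: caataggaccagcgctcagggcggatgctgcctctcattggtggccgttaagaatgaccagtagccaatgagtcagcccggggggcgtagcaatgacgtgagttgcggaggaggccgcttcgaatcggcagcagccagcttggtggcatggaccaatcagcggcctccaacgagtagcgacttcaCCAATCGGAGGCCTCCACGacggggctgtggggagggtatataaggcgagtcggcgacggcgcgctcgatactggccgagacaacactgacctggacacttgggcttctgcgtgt
Hsp90b1, chr10:86705395-86705694, minus strand: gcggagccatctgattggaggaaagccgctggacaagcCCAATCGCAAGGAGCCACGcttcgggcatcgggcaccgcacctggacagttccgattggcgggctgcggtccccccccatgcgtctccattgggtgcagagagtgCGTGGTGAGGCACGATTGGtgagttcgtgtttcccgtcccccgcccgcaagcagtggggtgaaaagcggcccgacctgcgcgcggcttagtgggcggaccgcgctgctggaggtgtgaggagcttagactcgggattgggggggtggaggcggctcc
Dnajc3, chr14:118937682-118937981, plus strand: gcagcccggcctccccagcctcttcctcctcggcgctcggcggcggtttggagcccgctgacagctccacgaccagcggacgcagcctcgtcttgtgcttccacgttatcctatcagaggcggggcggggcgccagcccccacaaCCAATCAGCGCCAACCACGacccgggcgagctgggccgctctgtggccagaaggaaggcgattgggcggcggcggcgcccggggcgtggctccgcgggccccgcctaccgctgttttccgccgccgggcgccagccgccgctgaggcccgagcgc
The element ends 47 bases before the start in Hspa5 and 87 before it in Dnajc3, and Hsp90b1 has copies ending 194 and 89 bases before it. It was found in 0.119% of all 32851 windows and in 3 of the 67 members that have a window. The other 13 genes past the filter with the element had a median difference of 0.11 at day 4 and -0.06 at day 6, with 5 lower at day 4 and 8 at day 6. A match of letters is a description and not evidence of binding.

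Hspa5, the main Hsp70 chaperone of the ER, had an intensity of 652 with 4OHT against 456 untreated at day 4. At day 6 it had 1342 with 4OHT against 2772 untreated. The untreated day 6 array thus stood highest, and the 4OHT difference was 0.50 at day 4 and -1.04 at day 6 (2.05-fold lower). Over both days the 4OHT difference was -0.27 ± 0.28 (SE; limma adjusted p = 0.77). Its other probe sets gave -0.10 and -0.02 at day 4, and -0.81 and -0.20 at day 6, so only the lower level at day 6 was seen in all 3.

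Hsp90b1, which folds secreted and membrane proteins, had 587 with 4OHT against 670 untreated at day 4. At day 6 it had 1393 with 4OHT against 2103 untreated. It was lower with 4OHT by 0.19 at day 4 and by 0.59 at day 6, and its second probe set gave -0.02 and -0.52 (limma over both days -0.39 ± 0.21, SE, adjusted p = 0.462). Hspa13, an Hsp70-like protein of the ER, had 21.5 with 4OHT against 21.3 untreated at day 4, and 112 against 187 at day 6. In this probe set its levels at day 4 were alike and near the filter, and the day 6 difference was -0.67. The second Hspa13 probe set past the filter gave 0.45 at day 4 and -0.38 at day 6.

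Among the J-domain cofactors of BiP, Dnajb9, which helps repress the stress sensor IRE1, had 28.5 with 4OHT against 32.9 untreated at day 4, and 111 against 179 at day 6. Dnajb11, which binds clients ahead of BiP, had 201 with 4OHT against 132 untreated at day 4, and 321 against 479 at day 6. Dnajc3, a cofactor that also restrains the kinase PERK, had 227 with 4OHT against 221 untreated at day 4, and 230 against 327 at day 6. All 3 were lower with 4OHT at day 6, by 0.62, 0.56 and 0.48 in that order, while at day 4 Dnajb11 was higher by 0.55 and the others differed by -0.13 and 0.03. The 4 probe sets of Dnajc3 past the filter were all lower at day 6, by 0.48 to 1.02.

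Dnajc10, a J-domain protein with thioredoxin folds that reduces disulphides, had 102 with 4OHT against 62.2 untreated at day 4, and 141 against 152 at day 6. Dnajc16, a further ER J-domain protein with a thioredoxin fold, had 21.5 with 4OHT against 33.7 untreated at day 4, and 42.3 against 50.4 at day 6. Dnajc1, a membrane protein with its J domain in the lumen, had 173 with 4OHT against 115 untreated at day 4, and 219 against 161 at day 6. Dnajc1 was the sole ER lumen member higher with 4OHT on both days, by 0.54 and 0.41 (limma 0.48 ± 0.21, SE, adjusted p = 0.313), though the mean of its probe sets gave 0.06 and 0.07. Of the 21 ER lumen probe sets past the filter, 17 were lower with 4OHT at day 6 and 9 at day 4.

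**Figure D2:**
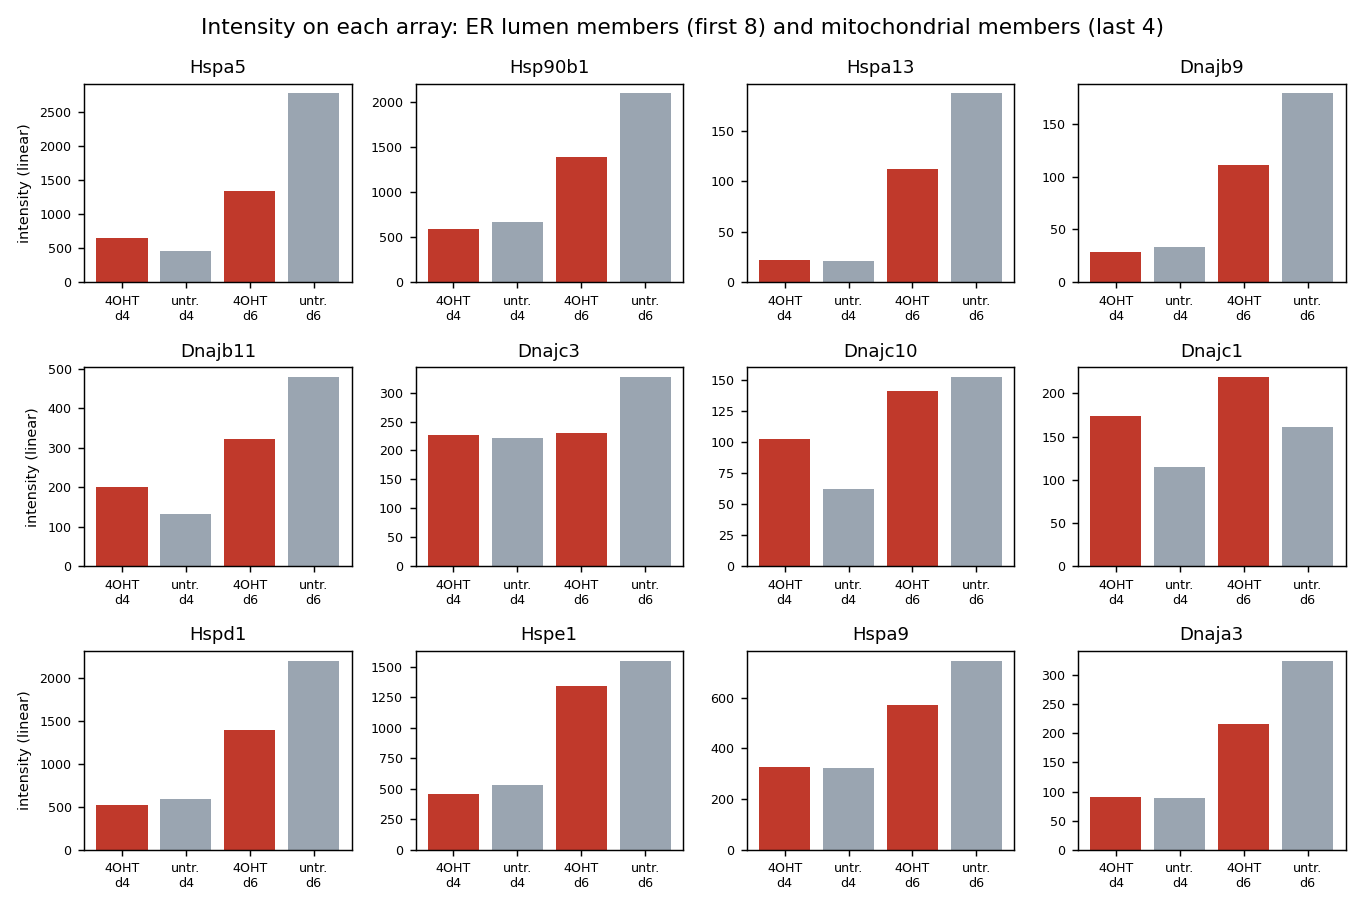
Bars give the linear intensity of the brightest probe set on each array, from 0, for 8 ER lumen genes (Hspa5 to Dnajc1) and 4 mitochondrial genes (Hspd1 to Dnaja3), red for 4OHT and grey for untreated, at day 4 (d4) and day 6 (d6). In every panel but Dnajc1 the untreated day 6 array is the highest, as for Hspa5 with 1342 with 4OHT and 2772 untreated.

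The remaining 4 ER members sit in the ER membrane with the J domain facing the cytosol, and their median difference was 0.11 on day 4 and -0.10 on day 6. Dnajb14, which works with Dnajb12 in the disposal of misfolded membrane proteins, had 117 with 4OHT against 44.3 untreated at day 4, and 65.6 against 57.8 at day 6. Its level with 4OHT was thus 2.21-fold that of untreated organoids on day 4 and 1.11-fold on day 6 (limma 0.64 ± 0.24, SE, adjusted p = 0.209). Its second probe set gave -0.23 and -0.65, so the direction rests on the probe set used. Dnajb12 differed by 0.18 and -0.43, Dnajc14 by 0.04 and -0.30, and Dnajc18 by -0.44 and 0.09 at days 4 and 6.

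In the mitochondrion Hspd1 (Hsp60) and Hspe1 (Hsp10) form the folding chamber of the matrix, and Hspa9 (mortalin) is the Hsp70 that imports and folds proteins there. Hspd1 and Hspe1 lie head to head and share a promoter: their windows overlap by 285 bases on opposite strands. The window of Hspe1 is shown with its pair of heat shock elements in capitals, searched on both strands as GAA, TTC and GAA with any 2 bases between them, which overlap on opposite strands, and beside it that of Hsph1, a cytosolic member with the same element.
Hspe1, chr1:55087898-55088197, plus strand: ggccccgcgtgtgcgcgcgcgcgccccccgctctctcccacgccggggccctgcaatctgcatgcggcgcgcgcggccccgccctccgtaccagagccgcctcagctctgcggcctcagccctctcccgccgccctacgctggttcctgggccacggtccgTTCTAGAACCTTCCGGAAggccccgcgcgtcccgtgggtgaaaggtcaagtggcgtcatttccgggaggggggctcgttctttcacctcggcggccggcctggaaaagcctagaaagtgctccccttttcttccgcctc
Hsph1, chr5:149636287-149636586, minus strand: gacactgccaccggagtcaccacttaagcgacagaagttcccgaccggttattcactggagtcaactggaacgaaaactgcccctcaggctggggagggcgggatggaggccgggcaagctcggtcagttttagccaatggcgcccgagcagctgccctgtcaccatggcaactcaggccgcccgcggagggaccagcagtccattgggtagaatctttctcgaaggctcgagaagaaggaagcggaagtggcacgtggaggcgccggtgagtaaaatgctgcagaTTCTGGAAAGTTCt
The elements of Hspe1 span the bases from 89 to 72 before its start, and that of Hsph1 lies after its start. The element was found in 0.603% of all windows and in 4 members, Hspd1, Hspe1, Hsph1 and Dnajb6, of which Hspd1 and Hspe1 share the same sites. The other 56 genes past the filter with it had median differences of 0.06 at day 4 and 0.04 at day 6. Of these, 25 were lower on each day (background 43.2% at day 4 and 50.5% at day 6), and Chordc1 is also in the cytosolic list of cofactors below. An E-box, CACGTG, was found in 7.15% of windows and in 7 members.

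Hspd1 had 525 with 4OHT against 593 untreated at day 4, and 1397 against 2202 at day 6. Hspe1 had 456 with 4OHT against 531 untreated at day 4, and 1344 against 1548 at day 6. Both were lower with 4OHT on both days, Hspd1 by 0.17 and 0.65 and Hspe1 by 0.21 and 0.20 (limma over both days -0.41 ± 0.22 and -0.21 ± 0.21, SE, adjusted p = 0.432 and 0.754). The second Hspe1 probe set, not of the cross-matching _s_at kind, gave -0.43 and -0.74. Hspa9 had 326 with 4OHT against 323 untreated at day 4, and 572 against 746 at day 6. Its difference was 0.01 at day 4 and -0.37 at day 6, and 4 of its 5 probe sets were lower at day 6.

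Dnaja3, the J-domain partner of Hspa9, had 90.7 with 4OHT against 89.0 untreated at day 4, and 217 against 325 at day 6, a day 6 difference of -0.55. Dnajc15, a J-domain protein of the import motor, differed by 0.04 at day 4 and -0.34 at day 6. Dnajc30, known to interact with the ATP synthase, differed by 0.60 at day 4 and -0.38 at day 6. Dnajc11, a protein linked to cristae, had 210 with 4OHT against 179 untreated at day 4, and 229 against 201 at day 6, and was the sole mitochondrial member higher on both days. Of the 15 mitochondrial probe sets past the filter, 11 were lower at day 6 and 6 at day 4, against 49 and 47 of 95 for the cytosolic members.

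Among cytosolic chaperones, Hsp90aa1, the stress-inducible Hsp90, had 2006 with 4OHT against 1194 untreated at day 4. At day 6 it had 1144 with 4OHT against 782 untreated. The brightest probe set was higher with 4OHT on both days, by 0.74 and 0.54 (limma 0.64 ± 0.21, SE, adjusted p = 0.132). Its 3 other probe sets past the filter gave 0.22, -0.19 and -0.26 at day 4 and -0.02, -0.07 and 0.03 at day 6, and the mean of all its probe sets gave 0.08 and 0.10. The difference therefore stood in a single probe set.

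Hspa8, the constitutive Hsp70, had 6973 with 4OHT against 6525 untreated at day 4, and 7999 against 7143 at day 6, differences of 0.10 and 0.16. Hspa1b, an inducible Hsp70, had 95.4 with 4OHT against 69.8 untreated at day 4, and 113 against 165 at day 6. Its copy Hspa1a is nearly identical, and probes may not tell them apart; the Hspa1a probe set lay under the filter, at most 10.6. Hspa1b differed by 0.38 at day 4 and -0.49 at day 6, and all 3 of its probe sets were lower at day 6. Hspa14, an Hsp70 that binds ribosomes, had 118 with 4OHT against 89.8 untreated at day 4, and 180 against 265 at day 6; its other probe sets differed at day 6 by 0.03 and -0.01.

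The nucleotide exchange factors of the Hsp110 group reset Hsp70. Hsph1 had 426 with 4OHT against 255 untreated at day 4, and 560 against 516 at day 6, differences of 0.71 and 0.11. Hspa4 had 305 with 4OHT against 368 untreated at day 4, and 778 against 776 at day 6, differences of -0.26 and 0.00. Hspa4l had 40.8 with 4OHT against 73.4 untreated at day 4, and 74.5 against 93.7 at day 6. Hspa4l was lower in this probe set by 0.65 and 0.28, but its 4 other probe sets were all higher at day 4, by 0.39 to 0.95. Hspbp1, another exchange factor, was higher by 0.97 at day 4 and lower by 0.14 at day 6.

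The CCT chaperonin is a ring of different subunits that folds actin and tubulin, and its subunits did not move together. Cct3 had 2031 with 4OHT against 1611 untreated at day 4, and 2544 against 1816 at day 6. Cct8 had 121 with 4OHT against 162 untreated at day 4, and 413 against 565 at day 6. Cct3 was higher by 0.33 and 0.48 and Cct8 lower by 0.38 and 0.44, and neither passed the test (limma adjusted p = 0.416 and 0.414). Of the 5 probe sets of Cct3 past the filter, 4 were higher on both days.
Cct2 had 816 with 4OHT against 859 untreated at day 4, and 1993 against 2313 at day 6. Cct4 had 2012 with 4OHT against 1826 untreated at day 4, and 2633 against 2620 at day 6. Cct5 had 886 with 4OHT against 823 untreated at day 4, and 1421 against 1640 at day 6. These 3 subunits differed by -0.21 to 0.14 on either day. Cct6a had 968 with 4OHT against 967 untreated at day 4, and 2421 against 2194 at day 6. Cct7 had 1265 with 4OHT against 831 untreated at day 4, and 1085 against 1178 at day 6. Cct7 thus differed by 0.60 at day 4 and -0.12 at day 6, and Cct6a by 0.00 and 0.14. Cct6b, a subunit known from testis, lay under the filter with 12.8 and 9.91 with 4OHT at days 4 and 6, against 15.7 and 6.56 untreated.

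Small heat shock proteins hold unfolding proteins without ATP. Hspb1 (Hsp25 in mouse) was higher with 4OHT on both days, by 0.31 and 0.20, and both of its probe sets had this direction. Hspb8 differed by 0.27 and 0.05 and Hspb2 by -0.49 and -0.01, and the other cytosolic small heat shock proteins, Hspb3, Hspb6, Hspb7 and Hspb9, lay under the filter.

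Cytosolic J-domain proteins also went both ways. Dnajc9, a histone chaperone, had 105 with 4OHT against 56.7 untreated at day 4, and 196 against 147 at day 6, higher by 0.74 and 0.38 (limma adjusted p = 0.216). Dnajc5, the cysteine string protein of vesicles, had 364 with 4OHT against 261 untreated at day 4, and 621 against 514 at day 6, higher by 0.46 and 0.27, though 1 of its 5 probe sets was lower on both days. Dnajc13, which acts with Hspa8 on endosomes, was lower by 0.73 and 0.26 (limma adjusted p = 0.311), but its second probe set gave 0.68 and -0.03. Dnajb1, the inducible partner of Hspa8, was higher by 0.50 and 0.12, and its second probe set gave 0.39 and -0.38, so its direction at day 6 rests on the probe set used. Its relatives Dnaja1 and Dnaja2 differed by -0.03 and 0.07 at day 4 and by -0.14 and -0.37 at day 6. Dnajc12 had the lowest cytosolic difference at day 6, -0.74. Dnajc17 had the highest, 0.93, in a probe set reading 1164 to 6432 on the 4 arrays, while the next probe set of the gene read 26.5 to 38.6 and differed by 0.06 at day 6. The other 12 cytosolic J-domain genes past the filter differed by -0.29 (Dnajb5) to 0.71 (Dnajc24) at day 4 and by -0.26 (Dnajb4) to 0.24 (Dnajb2) at day 6. Dnaja4, Dnajb3, Dnajb13 and Dnajc6 lay under the filter, as did the Hsp70 genes Hspa1l and Hspa2.

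Of the members not assigned to a compartment, Hspb11, a subunit of the transport complex of cilia (IFT25) and not a typical small heat shock protein, came nearest to the threshold. It had 30.8 with 4OHT against 66.3 untreated at day 4, and 62.9 against 105 at day 6. It was lower by 0.82 and 0.62 (limma -0.72 ± 0.21, SE, adjusted p = 0.0847, and 0.0659 to 0.264 over the alternatives in which it was again the member nearest the threshold). The other 7 past the filter, the J-domain genes Dnajc4, Dnajc5g, Dnajc22, Dnajc25 and Dnajc28 with Hspa12a and Hspbap1, differed by -0.42 to 0.42 on either day. Hspa12a, a distant Hsp70 relative, had 16.2 with 4OHT against 23.2 untreated at day 4, and 12.0 against 12.4 at day 6. Cct8l1, Dnajc5b and Hspa12b lay under the filter.

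**Figure D3:**
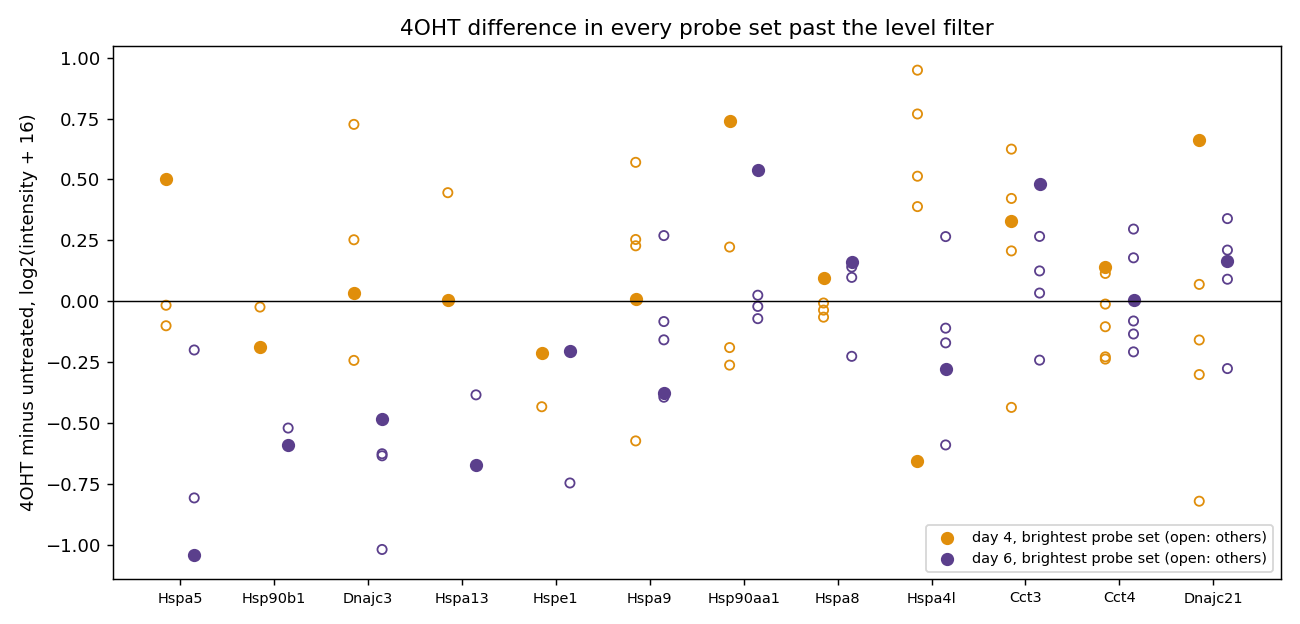
For 12 chaperone genes with several probe sets, the 4OHT minus untreated difference in log2(intensity + 16) is shown for every probe set past the level filter, orange for day 4 and purple for day 6, filled for the brightest and open for the others. All probe sets of Hspa5, Hsp90b1, Dnajc3 and Hspa13 shown lie below 0 at day 6. At day 4 those of Hspa5 and Dnajc3 fall on both sides of 0, as do those of Hsp90aa1, Hspa4l and Dnajc21.

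The compartment pattern was next set beside lists of folding cofactors of each compartment, made of genes that are not among the members. The lists are not free of chaperones: they hold the CCT subunit Tcp1, the lectin chaperone Canx and the J-domain protein Hscb, among others. The ER list (disulphide isomerases, lectin chaperones, stress sensors and disposal factors, 27 of 29 measured) had a median of 0.19 at day 4 and -0.43 at day 6, with 7 lower at day 4 and 20 at day 6. The cytosolic list (Hsp90 and Hsp70 cochaperones, prefoldin and heat shock factor, 27 of 30 measured) had 0.20 and -0.22, with 7 and 15 of the 26 past the filter lower. The mitochondrial list (import motor, exchange factors and proteases, 16 of 16 measured) had 0.05 and -0.17, with 7 and 11 lower. All 3 lists thus had a lower median at day 6 than at day 4, the ER list the lowest.

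In the ER list 0 of 27 genes rose and 1 fell, near the 0.97% and 2.25% of all genes. Pdia4, a disulphide isomerase, had 55.8 with 4OHT against 114 untreated at day 4, and 126 against 242 at day 6, and fell by 0.86 ± 0.21 (SE; limma adjusted p = 0.0322). Canx, the lectin chaperone calnexin, was lower by 0.46 and 1.05 without passing the test (limma adjusted p = 0.0847). Ppib, an ER prolyl isomerase, was higher by 0.66 and 0.48 and Txndc5, a disulphide isomerase, by 0.34 and 0.31, so the list was not uniform. Named after their values were seen, Atf6 and Xbp1, which activate the unfolded protein response, differed by -0.06 and 0.21 at day 4 and by -1.01 and -0.58 at day 6, and Ern2, an IRE1 sensor of goblet cells, by 0.16 and 1.23.

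In the mitochondrial list 0 of 16 genes rose and 1 fell, again beside 0.97% and 2.25% of all genes. The gene that fell was Clpx, the unfoldase of a matrix protease. Clpx had 14.7 with 4OHT against 44.0 untreated at day 4, and 100.2 against 186 at day 6, and fell by 0.88 ± 0.21 (SE; limma adjusted p = 0.0276). Grpel2, an exchange factor of Hspa9, was higher by 0.44 and 0.63, Hscb, a J-domain protein of iron-sulphur assembly, lower by 0.55 and 0.34, and Ppif, cyclophilin D, lower by 0.26 and 0.29. In the cytosolic list 0 rose and 0 fell, with 2 of 26 at an unadjusted limma p under 0.05 (background 13.9%). Bag3, an Hsp70 exchange factor of selective autophagy, was lower by 0.46 and 0.54 and Cdc37l1, an Hsp90 cochaperone, higher by 0.54 and 0.37. Hsbp1, which binds heat shock factor 1, was lower by 0.34 and 0.39, and Stub1, the ubiquitin ligase CHIP, higher by 0.39 and 0.26. Tcp1 was lower by 0.26 and 0.25, and Hsf2, a heat shock factor, lay under the filter.

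**Figure D4:**
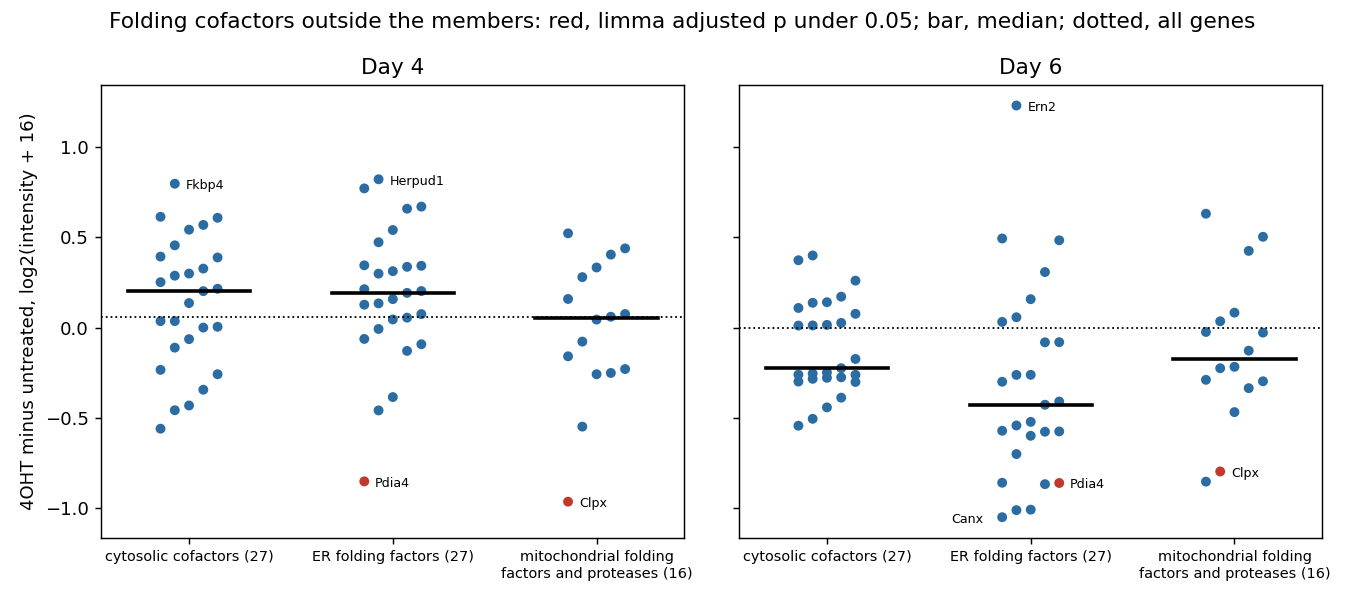
Points are the listed folding cofactors, which are not among the members, by compartment (number measured in brackets). The vertical axis is the 4OHT minus untreated difference in log2(intensity + 16), day 4 left and day 6 right. Black bars are list medians, 0.19 at day 4 and -0.43 at day 6 for the ER list, the dotted line is the median of all genes past the level filter, and red marks the genes with a limma adjusted p under 0.05 over both days, Pdia4 and Clpx.

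Levels of cell type markers differed as well. Here rose and fell refer to the limma test over both days (adjusted p under 0.05), in which 0.97% of all genes rose and 2.25% fell. Enterocyte markers (12 measured) summed to 6576 with 4OHT against 14705 untreated at day 6 and to 1597 against 3901 at day 4, and 7 of them fell. Paneth cell markers (5 measured) summed to 43260 with 4OHT against 12502 untreated at day 6 and to 46532 against 28964 at day 4, and 5 rose. Goblet cell markers (8 measured) summed to 13345 with 4OHT against 7909 untreated at day 6 and to 19450 against 13263 at day 4. Of them 3 rose and 2 fell. The goblet sums were led by Tff3 and Spink4, at 6657 and 4822 with 4OHT at day 6. By direction, 4 of the 8 were higher with 4OHT on both days and 4 lower (Agr2, Clca1, Fcgbp and Zg16), Agr2 by only 0.01 at day 4. Crypt stem cell markers (6 measured) summed to 9591 with 4OHT against 5936 untreated at day 6 and to 1746 against 1443 at day 4, and 2 rose and 0 fell. Each of these sums differed in the same direction on both days, but not to the same extent: the Paneth cell sums lay further apart at day 6 than at day 4. The part of the markers in the results was not tested. In bulk organoids, fewer cells of a type and less RNA per cell cannot be told apart.

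Day 6 was then set against day 4 within each treatment. These contrasts share arrays with those above: untreated day 6 enters both the day 6 difference of 4OHT and the untreated change over time. In 4OHT organoids 16 of 66 members were at least 2-fold higher at day 6 (background 16.4%) and 3 lower (background 2.69%). In untreated organoids 23 were at least 2-fold higher (background 24.1%) and 2 lower (background 5.29%). Counts over time rest on the unknown scaling: after quantile normalization of the arrays, 5 members were at least 2-fold higher and 6 lower in 4OHT organoids, and 9 higher and 6 lower in untreated ones.

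By compartment, the ER lumen members had a median day 6 minus day 4 difference of 0.64 in 4OHT organoids and 1.63 in untreated ones. The mitochondrial members had 0.78 with 4OHT and 1.17 untreated, beside 0.04 and 0.16 for all genes past the filter. The 50 cytosolic members had -0.01 and 0.15, but 12 of them lay under the filter. The 38 cytosolic members past it had 0.29 with 4OHT and 0.50 untreated. After quantile normalization the medians were 0.63 with 4OHT and 1.05 untreated for the ER lumen and 0.33 and 0.48 for the mitochondrial members. For all 50 cytosolic members, with those under the filter, they were -0.02 and -0.04. The median of all genes past the filter moved to -0.15 and -0.13. Averaging each gene's probe sets gave medians of 0.44 with 4OHT and 1.01 untreated for the ER lumen. The mitochondrial medians were then 0.41 and 0.87, and 1 ER lumen member in place of 4 was at least 2-fold higher with 4OHT. Bright genes in general were higher at day 6: with the filter at the 75th percentile of intensity, which 53 members passed, the median of all genes was 0.40 with 4OHT and 0.65 untreated. In their brightest probe sets the 9 ER lumen members were higher at day 6 in both arms (background 47.4%), Dnajc3 by only 0.02 with 4OHT. Among all genes past the 75th percentile filter, 67.24% were higher at day 6 with 4OHT and 71.55% untreated. Hspa5 was 2.03-fold higher at day 6 with 4OHT and 5.91-fold untreated, Hspa13 3.41-fold and 5.44-fold, Dnajb9 2.86-fold and 4.00-fold, and Hspd1 2.61-fold and 3.64-fold. The other probe sets of Hspa5 gave log2 differences of 0.28 and -0.37 with 4OHT and of 0.99 and -0.19 untreated, and the second of Hspa13 gave -0.45 with 4OHT and 0.38 untreated. The size of the change over time in both genes therefore rests on the brightest probe set. Its direction also differed between probe sets, in both arms for Hspa5 and with 4OHT for Hspa13.

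In the cytosol Cct8 was 3.13-fold higher at day 6 with 4OHT and 3.26-fold untreated, and Dnaja1 2.50-fold and 2.70-fold. Hspb1 was lower at day 6 by 1.17 with 4OHT and by 1.06 untreated. The lowest untreated difference was that of Dnajc17, -2.45 (-0.98 with 4OHT), again in the probe set far brighter than its others. The brightest Hsp90aa1 probe set was lower at day 6 in both arms, by 0.80 with 4OHT and by 0.60 untreated, whereas its next probe sets were higher, by 1.41 and 1.58 with 4OHT and by 1.66 and 1.46 untreated. The direction of Hsp90aa1 over time therefore differed between its probe sets.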

How the data were processed

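Total RNA of each group was labelled from 100 ng with a 3' in vitro transcription kit and hybridized to 1 Affymetrix array, per the labels' protocols. The deposited values are linear intensities, 1 per probe set and array; how the authors corrected, summarised and scaled them was not given in the sources used here. The platform annotation names a single gene for 34958 of the 45101 probe sets, and those with several or none were left out. Each gene took the probe set with the highest mean of log2(intensity + 16), and 13192 of 18193 genes passed the level filter, their highest value being no lower than 20.9, the median intensity.

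limma 3.58.1 (R 4.3.3) fitted 4OHT and day as additive terms on the 4 arrays, with Benjamini-Hochberg adjustment over 13192 genes, a threshold of 0.05, 1 residual and 15.2 prior degrees of freedom. On simulated data for this comparison it called 84 of 100 genes changed by 1, 100 of 100 changed by 2 (log2) and 32 of 12992 unchanged genes. How often limma calls a gene whose 4OHT difference is not alike on both days, as for Hspa5, was not tested. Single days were described by differences and counts at 2-fold.

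Compartments and cofactor lists were assigned from background knowledge, and the members and lists were chosen with earlier results of these data known. Of the ER list 2 genes and of the cytosolic list 3 were not analysed here. Values on every array were given for chaperonin subunits, Hsp90, Hsp70, Hsp60 and Hsp10 members past the filter, members 2-fold apart with 4OHT, and up to 6 members a compartment with the largest smaller difference of the same direction on both days; of each list, genes past the test and up to 4 chosen likewise; genes named by direction or motif besides these were chosen after their values were seen. Promoter windows and gene positions are from RefSeq (GRCm38.p6). Alternatives were the pseudocount, quantile normalization, median centring, the choice of probe sets, the level filter, the thresholds, the day term and the assignment of compartments; those on ER lumen counts were added after seeing the data. Tables were handled with Python 3.11.15 and pandas 2.3.3.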

Additional observations from a re-analysis of the deposited data

How the results depend on the processing

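At an adjusted p under 0.05 in limma, 0 members rose and 0 fell under each alternative on pseudocount, normalization, probe sets, level filter and day term, with 0 to 8 members at an unadjusted p under 0.05; the lowest adjusted p of a member over them was 0.0659, for Hspb11 with median centring. At an adjusted p under 0.1, 1 fell as reported, Hspb11. Among all genes the test called 425, against 47 and 0 with pseudocounts of 1 and 64, 0 without the level filter, 0 without the day term and 291 after quantile normalization. Counts at 2-fold were small and moved. With 4OHT at day 4 they were 2 higher and 1 lower with a pseudocount of 1, 0 higher with 64, 2 higher and 1 lower after quantile normalization, and 0 higher with the mean of all probe sets; at day 6 they were 1 higher and 0 lower after quantile normalization and 0 lower with the mean of probe sets. At 1.5-fold, 10 were higher and 3 lower at day 4, and 1 higher and 7 lower at day 6. For day 6 against day 4, 4OHT organoids had 6 lower (pseudocount 1), 9 higher and 1 lower (64), 5 higher and 6 lower (quantile), 7 higher and 1 lower (mean of probe sets), and 27 higher and 9 lower (1.5-fold). Untreated organoids had 1 lower (64), 9 higher and 6 lower (quantile), 15 higher and 0 lower (mean of probe sets) and 5 lower (1.5-fold). The causes of these shifts were not tested.

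The ER lumen median at day 6 lay between -0.58 and -0.43 under the alternatives on pseudocount, normalization and probe sets, that of all ER members between -0.507 and -0.285 and the mitochondrial one between -0.384 and -0.225 (quantile), with 8 of 9 ER lumen members lower in each, as were 6 of 7 mitochondrial members and 18 to 21 of the ER cofactors. Without J-domain proteins the median of the ER members at day 6 was -0.67. When probe sets were averaged, 12 of 66 members turned direction at day 4 and 10 at day 6, of which 6 and 5 had differed by at least 0.1. These were Cct4 (-0.06), Dnajc21 (-0.11), Hspa14 (-0.0252), Hspa1b (-0.12), Hspa4 (0.01) and Hspa4l (0.39) at day 4, and Cct6a (-0.01), Dnajb1 (-0.13), Dnajb14 (-0.25), Dnajb6 (0.16) and Dnajc14 (0.02) at day 6. Over time 8 turned with 4OHT, Hspa9 to -0.21 among them, and 3 untreated. The labels give no replicate numbers, and the day term compares each 4OHT array with the untreated array of its day. With 1 array per group, the size of signal over background and the spread between cultures could not be assessed.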
